A study of Mus musculus with 4 samples.

Results

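Histones are the proteins that wrap DNA into chromatin, and 73 of the 40213 gene symbols in the deposited tables encode them under the rule used here. The rule took 66 replication-dependent histone genes by symbol, namely 5 linker histone H1 genes (H1f1 to H1f5), 18 H2A, 18 H2B, 12 H3 and 13 H4 genes. It added 7 replacement variant genes as a contrast, H1f0, H2ax, H2az1, H2az2, H3f3a, H3f3b and Macroh2a1. The family was picked with its difference between the groups already known, so its changes are given as a description and nothing is inferred from them by a test.

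The RNA came from RAW264.7, a mouse macrophage cell line, and was taken at 48 h; 2 libraries are titled Gel and 2 are titled CuNZ@Gel. Groups follow the sample titles, because the treatment text shared by all 4 libraries mentions CuNZ@Gel alone, and the labels do not spell out CuNZ or say what the Gel cells received. No genetic change and no cell cycle arrest is labelled for either group. Separate cultures are not stated for the replicates, so p-values refer to library-to-library spread, part of which may be technical. All molecules are labelled total RNA and the libraries mRNA sequencing, and how mRNA was selected is not stated in the sources used here.

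Between 13716000 and 14879000 reads were recovered per library, and the Pearson r between same-group libraries, taken across genes, was 0.995. Levels are in scaled CPM, which is CPM divided by 1 further factor per library, and are not divided by transcript length. A log2 change is the difference of log2(scaled CPM + 1) between the group means, which is smaller than the true log2 fold at low levels, and it is given ± its standard error. The macrophage markers Lyz2, Cd68 and Csf1r were present throughout, with 8 such markers summing to between 5439 and 5603 scaled CPM in Gel and between 8570 and 8804 in CuNZ@Gel. Of 21 markers of fibroblasts, epithelium, T cells, B cells, endothelium and neutrophils, 19 stayed under 1 scaled CPM in every library and 4 were at 0 in all. Pecam1 had the highest value, 2.21 scaled CPM. Fewer cells that express a gene and less of its RNA per cell cannot be told apart in bulk libraries such as these.

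Replication-dependent histone genes supply the bulk of new histone while DNA is being copied, and their mRNAs are known to accumulate in S phase and to be destroyed when it ends. Their mRNAs have no intron and usually no poly(A) tail. They end in a short stem-loop that the protein SLBP binds, and U7 small nuclear RNA and associated proteins guide the cut that makes this end. Replacement variants come from single genes outside this system, are mostly made as ordinary polyadenylated mRNAs, and are deposited throughout the cell cycle. Some replication-dependent genes can also be read past the stem-loop to a downstream poly(A) signal, which is known from differentiated or arrested cells.

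The stem-loop sites are shown because they are the part of the mRNA that sets this family apart. In GENCODE vM21 transcripts, 40 of 62 matched replication-dependent genes held a match to the histone stem-loop consensus of 16 bases, and so did the variant H2ax. Over all gene names of that annotation, 51 of 55341 held one (0.0922%). The core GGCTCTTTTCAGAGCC occurred in 24 members of the H1, H2A, H2B and H3 types, and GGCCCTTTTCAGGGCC in 6 members, all of them H4 genes. Capitals mark the stem-loop core and lower case the 5 bases on either side, as RNA-sense DNA letters from 5′ to 3′:
H1f2: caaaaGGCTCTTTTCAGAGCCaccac
H1f4: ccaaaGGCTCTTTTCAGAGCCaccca
H2ac23: aaaaaGGCTCTTTTCAGAGCCatcca
H2ac19: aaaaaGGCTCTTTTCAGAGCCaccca
H2bc3: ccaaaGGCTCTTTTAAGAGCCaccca
H3c14: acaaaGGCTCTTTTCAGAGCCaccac
H3c15: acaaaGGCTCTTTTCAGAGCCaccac
H4c4: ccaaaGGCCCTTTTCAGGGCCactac
H4c9: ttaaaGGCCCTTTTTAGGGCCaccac
H2ax: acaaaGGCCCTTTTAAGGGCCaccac
H3c14 and H3c15 had the same 26 printed bases. These sites are descriptions of the annotated transcripts, and a missing match says only that the letters are not in the annotated transcript.

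Most replication-dependent histone genes were lower with CuNZ@Gel, while a few members of the H1, H2B, H3 and H4 types were higher. Of 55 that reached 1 scaled CPM in 2 or more libraries and were tested, 45 were lowered, 5 were raised and 5 were not called. Called means an adjusted p under 0.05 in limma over all 11588 tested genes, of which 34.8% were lowered, 32.2% raised and 67.1% called in either direction. The raised genes were H1f2, H2bc4, H2bc24, H3c15 and H4c9, and those not called were H2ac7, H2ac18, H2ac19, H2bc6 and H2bc21. The median log2 change of the 55 was -1.41, against -0.03 over all tested genes. The fall was at least 1 on the log2 scale for 41 of them, against 6.12% of all tested genes. Groups did not overlap for 52 of the 55, against 83.2%. Of these 55 genes, 26 passed the filter only through the Gel libraries and so had to be lower in CuNZ@Gel, and none passed only through CuNZ@Gel. The other 11 members, up to 1.10 scaled CPM in any library, were not tested, and H2bc23 was at 0 in all 4. With a filter at 5 scaled CPM, 15 of 22 tested genes were lowered. Without Gel replicate 1, and likewise without Gel replicate 2, 19 of 29 were lowered, since fewer genes then pass the filter.

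**Figure D1:**
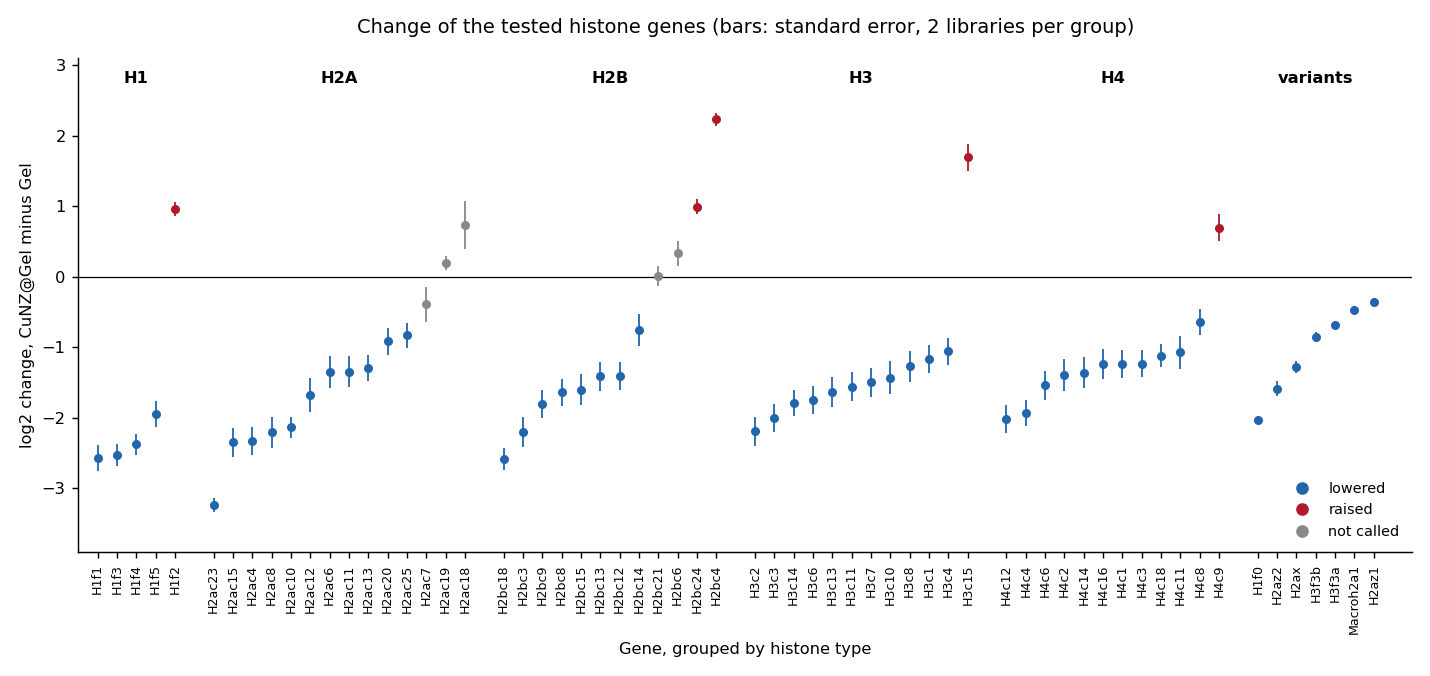
Log2 change (CuNZ@Gel minus Gel, vertical axis) of each tested histone gene, grouped by type along the horizontal axis and coloured by call; bars are standard errors from limma with 2 libraries per group. Most points lie below 0, from H2ac23 at -3.24 upward, and each of H1, H2B, H3 and H4 has at least 1 gene above 0 that was raised.

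Reads of these genes are hard to assign, which limits the value of any single gene. Within a type, coding sequences are near copies: all 12 H3, 10 of 12 matched H4, 15 of 17 matched H2A and 10 of 16 matched H2B genes were at least 95% identical to another member. H2ac18 with H2ac19, H2ac23 with H2ac24, H3c14 with H3c15 and H4c17 with H4c18 had identical longest reading frames. H1 genes were less alike, with 72.4% to 83.9% identity to the nearest member. Of the members' values above 0 and up to 1 scaled CPM, 17.9% (14 of 78) were whole reads within 0.02 reads, against 93.0% over all genes. The remainder were fractions of reads. How the authors assigned a read that fits several copies is not stated in the sources used here, so sums over identical genes and over types are given beside single genes.

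The H1 linker histones, which bind the nucleosome where DNA enters and leaves, moved in both directions: H1f1, H1f3, H1f4 and H1f5 fell and H1f2 rose. H1f3 measured 17.5 and 18.1 scaled CPM in the Gel libraries and 2.47 and 2.05 in the CuNZ@Gel libraries, a log2 change of -2.53 ± 0.152. H1f4 went from 20.6 and 20.0 to 2.72 and 3.51 scaled CPM (-2.38 ± 0.148). Both genes were several times lower in each CuNZ@Gel library than in either Gel library. H1f1 measured 7.25 and 8.73 scaled CPM in Gel against 0.441 and 0.571 in CuNZ@Gel (-2.57 ± 0.186). H1f5 measured 5.65 and 6.86 against 0.945 and 0.825 (-1.94 ± 0.185). No lowered H1 gene overlapped between the groups, nor did 83.2% of all tested genes. H1f1 and H1f5 passed the filter only through Gel and so could not overlap. H1f2 had 21.6 and 23.3 scaled CPM in Gel and 41.8 and 47.7 in CuNZ@Gel, 1.99-fold higher (log2 change 0.96 ± 0.0987). It was the only one of the 5 that was higher in both CuNZ@Gel libraries. The summed H1 signal was 72.5 and 77.0 scaled CPM in Gel and 48.3 and 54.6 in CuNZ@Gel, 1.45-fold lower, and without H1f2 it was 7.73-fold lower. H1f2 made up 29.7% and 30.3% of the H1 signal in Gel and 86.4% and 87.3% in CuNZ@Gel.

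**Figure D2:**
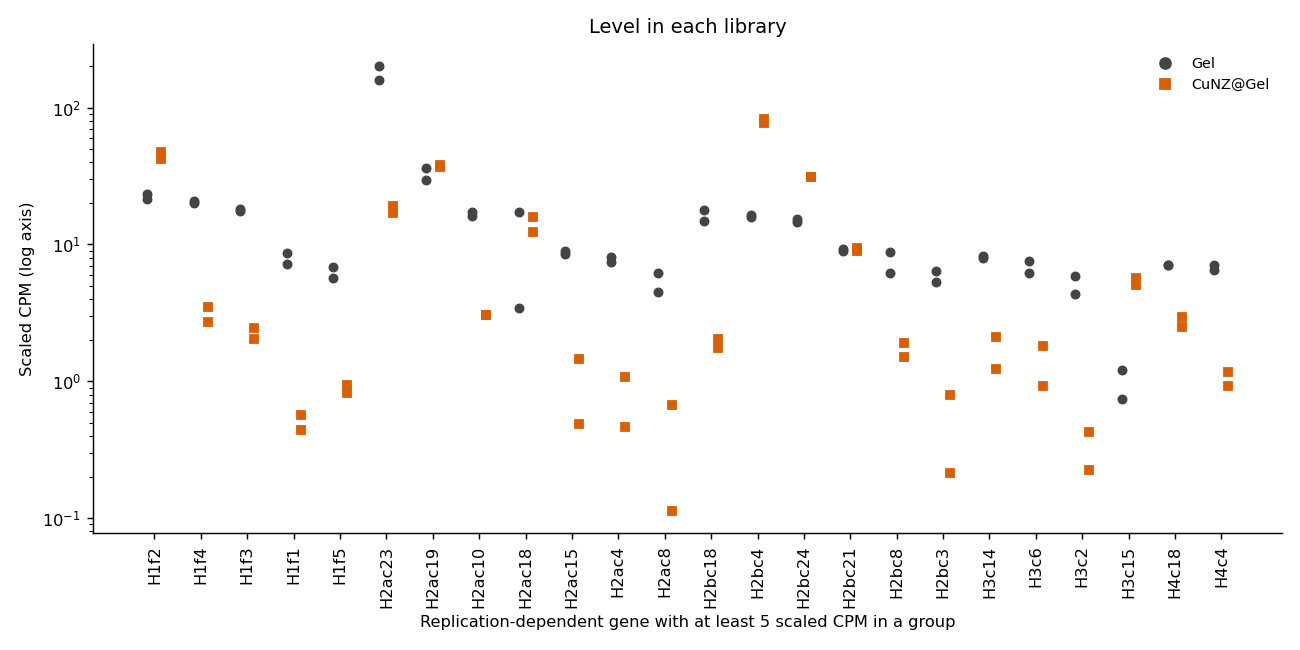
Scaled CPM (log axis) in each library for the 24 replication-dependent genes with at least 5 scaled CPM in a group, Gel as circles and CuNZ@Gel as squares. Squares lie below circles for most genes, above them for H1f2, H2ac19, H2bc4, H2bc24 and H3c15, and among them for H2ac18 and H2bc21.

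The upstream regions of H1f4, which fell, and H1f2, which rose, are shown together because the pair shares promoter elements and differs in direction. Both come from RefSeq for build GRCm38.p6, whose coordinates are not those of the files' build, and both run from 250 bases before the annotated start to 50 bases after it. H1f4 lies at chr13:23622509-23622808 on the minus strand and H1f2 at chr13:23738557-23738856 on the plus strand. Capitals mark AAACACA (the H1 box), CCAAT and TATAAA, searched on both strands:
H1f4 promoter: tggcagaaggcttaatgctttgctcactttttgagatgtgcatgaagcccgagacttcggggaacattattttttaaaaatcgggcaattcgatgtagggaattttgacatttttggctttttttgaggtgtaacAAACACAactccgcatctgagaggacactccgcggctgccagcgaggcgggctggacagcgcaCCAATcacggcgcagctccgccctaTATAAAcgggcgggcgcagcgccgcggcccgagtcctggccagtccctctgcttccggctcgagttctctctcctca
H1f2 promoter: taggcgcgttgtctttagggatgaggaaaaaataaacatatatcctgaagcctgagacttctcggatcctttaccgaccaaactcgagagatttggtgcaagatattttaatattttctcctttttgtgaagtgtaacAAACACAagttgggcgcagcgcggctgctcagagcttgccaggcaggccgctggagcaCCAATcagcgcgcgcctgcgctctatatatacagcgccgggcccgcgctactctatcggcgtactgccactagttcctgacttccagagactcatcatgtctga
AAACACA began 115 bases before the start in H1f4 and 112 bases before it in H1f2. CCAAT followed at 52 and 54 bases before the start, and TATAAA was found at 27 bases in H1f4 alone. AAACACA was present in 4 of 5 H1 promoters (not in H1f1) and in 8.22% of 27025 promoters of this table.

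The same search was made for the core histone types, with the octamer ATTTGCAT added. AAACACA was found in 2 of 17 H2A and 2 of 14 H2B promoters and in no H3 or H4 promoter. CCAAT was found in all 5 H1, all 17 H2A, all 14 H2B and all 10 H3 promoters in the table. It was found in 3 of 11 H4 promoters, and in 41.1% of all promoters. The octamer ATTTGCAT was found in 6 of 17 H2A and 7 of 14 H2B promoters, in no H1, H3 or H4 promoter, and in 1.97% of all. TATAAA was found in 4 of 5 H1, 11 of 17 H2A, 7 of 14 H2B, 4 of 10 H3 and 8 of 11 H4 promoters, against 15.7%. Among 6 variant promoters, 1 held TATAAA, 4 held CCAAT, 1 held AAACACA and 1 held the octamer. In all, 63 of the 73 members had a promoter in the table, and H2bc4, H2bc21 and H2bc24 were not among them.

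H2A genes, whose product pairs with H2B in the nucleosome, fell in 11 of 14 tested cases (34.8% among all tested genes). The other 3 were not called. Of these 14, 4 passed the filter only through Gel and so had to be lower. H2ac23 had the largest H2A signal in Gel, with 200 and 159 scaled CPM, and measured 17.001 and 19.1 in CuNZ@Gel. Its log2 change of -3.24 ± 0.0961 was the lowest of all tested histone genes, and its level was 9.96-fold lower. Added to H2ac24, which has the same coding sequence, it was 9.66-fold lower. H2ac10 measured 16.2 and 17.2 scaled CPM in Gel and 3.03 in both CuNZ@Gel libraries (-2.14 ± 0.146). H2ac15, H2ac4 and H2ac8 had log2 changes of -2.35, -2.33 and -2.20, with 4.49 to 8.91 scaled CPM in Gel and 0.113 to 1.45 in CuNZ@Gel. None of these H2A genes overlapped between the groups, nor did 83.2% of all tested genes. H2ac8 passed the filter only through Gel and so could not overlap.

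H2ac18 and H2ac19, whose reading frames are identical, were not called, and neither was H2ac7, at 1.57 and 1.40 scaled CPM in Gel and 1.55 and 0.408 in CuNZ@Gel. H2ac19 measured 36.3 and 29.4 scaled CPM in Gel and 37.0 and 38.1 in CuNZ@Gel, and its groups did not overlap (log2 change 0.20 ± 0.101). It passed the threshold as raised with total reads only (0.38), without Gel replicate 1 (0.34) and after a correction for transcript length and GC content (0.86), and H2ac18 did so under the first and last of these. H2ac18 had 3.43 and 17.2 scaled CPM in Gel and 12.2 and 15.9 in CuNZ@Gel, so the low value lay in Gel replicate 1 and the groups overlapped. Its log2 change was 0.74 ± 0.347, and it was -0.28 without Gel replicate 1 and 1.75 without Gel replicate 2. Their sum was steadier, at 39.7 and 46.5 scaled CPM in Gel and 49.2 and 54.0 in CuNZ@Gel. The H2A total was 298 and 269 scaled CPM in Gel and 79.8 and 84.3 in CuNZ@Gel, 3.46-fold lower, and without this pair 7.90-fold lower. H2ac18 and H2ac19 together made up 13.3% and 17.3% of the H2A signal in Gel and 61.7% and 64.0% in CuNZ@Gel. H2ac23 went the other way, from 67.2% and 59.1% to 21.3% and 22.7%.

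H2B was the 1 type whose summed signal was higher in CuNZ@Gel, with 8 genes lowered, 2 raised and 2 not called of 12 tested. Among all tested genes 34.8% were lowered and 32.2% raised. H2bc4 measured 15.9 and 16.5 scaled CPM in Gel and 82.9 and 77.0 in CuNZ@Gel, 4.94-fold higher (log2 change 2.23 ± 0.0906). H2bc24 went from 14.5 and 15.4 to 30.8 and 30.9 scaled CPM, 2.06-fold higher (1.00 ± 0.107). These were the raised H2B genes, and both stood clear of Gel in both CuNZ@Gel libraries. H2bc21 measured 8.99 and 9.27 in Gel and 9.45 and 9.01 in CuNZ@Gel (0.02 ± 0.138, not called). H2bc6, at 2.94 and 3.08 against 4.59 and 3.58 scaled CPM, was not called either (0.34 ± 0.178).

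The 8 lowered H2B genes had log2 changes from -2.58 (H2bc18) to -0.75 (H2bc14). Of the 12 tested H2B genes, 4 passed the filter only through Gel and so had to be lower. H2bc18 fell from 14.9 and 17.99 to 1.76 and 2.03 scaled CPM (-2.58 ± 0.159), H2bc3 from 6.37 and 5.29 to 0.213 and 0.801 (-2.20 ± 0.210). H2bc8 fell from 6.20 and 8.85 to 1.91 and 1.51 (-1.64 ± 0.187). The H2B total was 88.0 and 97.2 scaled CPM in Gel and 135 and 129 in CuNZ@Gel, 1.43-fold higher. Without H2bc4, H2bc21 and H2bc24 it was 48.6 and 56.0 against 12.3 and 12.4, 4.24-fold lower. These 3 genes made up 44.8% and 42.4% of the H2B signal in Gel and 90.9% and 90.4% in CuNZ@Gel, H2bc4 alone 18.1% and 16.95% against 61.2% and 59.5%.

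**Figure D3:**
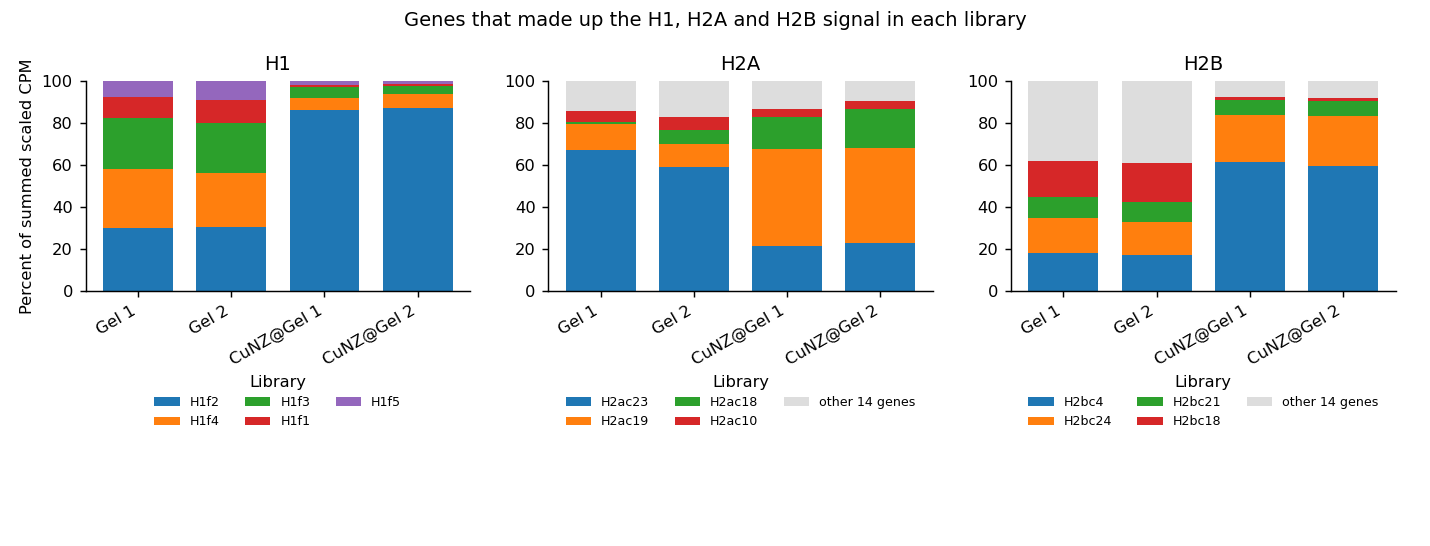
Percent of the summed scaled CPM of H1, H2A and H2B contributed by single genes in each of the 4 libraries, drawn as stacked bars from 0 to 100. H1f2 takes 86.4% and 87.3% of H1 and H2bc4 takes 61.2% and 59.5% of H2B in the CuNZ@Gel libraries, and H2ac23 shrinks from 67.2% and 59.1% to 21.3% and 22.7% of H2A.

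These shares are of signal and not of molecules, because the transcripts of a type differ in length and the values are not divided by it. The annotated transcript of H2bc4 has 1156 bases and that of H2bc18 has 381, the length of its reading frame, while H1f2 has 1560 bases and H1f5 has 743. Only the difference of a share between libraries is read here.

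H3, the core histone that pairs with H4, fell in 11 of 12 tested genes and rose in 1. The shares among all tested genes were 34.8% lowered and 32.2% raised. H3c14 measured 7.95 and 8.22 scaled CPM in Gel and 2.09 and 1.24 in CuNZ@Gel (-1.79 ± 0.184). H3c15, which has the same reading frame and stem-loop site, measured 1.22 and 0.739 in Gel and 5.67 and 5.06 in CuNZ@Gel (1.70 ± 0.192). H3c14 thus fell while H3c15 rose, and their sum was 9.17 and 8.95 scaled CPM in Gel against 7.76 and 6.29 in CuNZ@Gel, 1.29-fold lower. Together they made up 21.5% and 20.0% of the H3 signal in Gel and 59.5% and 58.7% in CuNZ@Gel. H3c6 fell from 7.54 and 6.14 to 1.81 and 0.931 scaled CPM (-1.75 ± 0.198), and H3c2 from 4.34 and 5.85 to 0.227 and 0.425 (-2.19 ± 0.203). All 4 tested genes of the H3.1 protein (H3c1, H3c8, H3c10, H3c11) fell, with a median log2 change of -1.35. Of 8 genes of the H3.2 protein, 7 fell and H3c15 rose, with a median of -1.69. All 4 H3.1 genes and 4 of the 8 H3.2 genes passed the filter only through Gel and so had to be lower in CuNZ@Gel, which leaves no comparison between the proteins. The H3 total was 42.6 and 44.8 scaled CPM in Gel and 13.1 and 10.7 in CuNZ@Gel, 3.68-fold lower.

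H4 fell in 11 of 12 tested genes, with log2 changes from -2.02 (H4c12) to -0.64 (H4c8). Over all tested genes 34.8% were lowered. Of these 12, 8 passed the filter only through Gel, H4c12 among them, and so had to be lower. H4c4 measured 6.54 and 7.09 scaled CPM in Gel and 0.932 and 1.17 in CuNZ@Gel (-1.93 ± 0.180). H4c18 measured 7.07 and 7.08 against 2.50 and 2.94 (-1.12 ± 0.166). H4c9 was the raised gene of this type, named although it lies under 5 scaled CPM because it was the only one: it had 1.99 and 1.43 scaled CPM in Gel and 3.86 and 2.93 in CuNZ@Gel (0.70 ± 0.195). At this level its call was lost without CuNZ@Gel replicate 1 and with no filter on low values. The H4 total was 42.6 and 43.0 scaled CPM in Gel and 13.2 and 13.8 in CuNZ@Gel, 3.16-fold lower.

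Summed over all 66 genes, the replication-dependent signal was 544 and 531 scaled CPM in Gel and 290 and 293 in CuNZ@Gel. That is 1.85-fold lower, and 1.31-fold lower without H2ac23, so this 1 gene carried much of the difference. At the level of 5 scaled CPM that decided which genes were described singly, H2bc15 (4.77), H3c3 (4.78) and H4c12 (4.80) lay just under it, and H3c2 (5.10), H2ac8 (5.35) and H3c15 (5.37) just over it. Each summed difference kept its direction when libraries were scaled by relative log expression, by upper quartiles or by total reads only. Scaling by total reads only moved the median log2 change of all tested genes to 0.15.

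**Figure D4:**
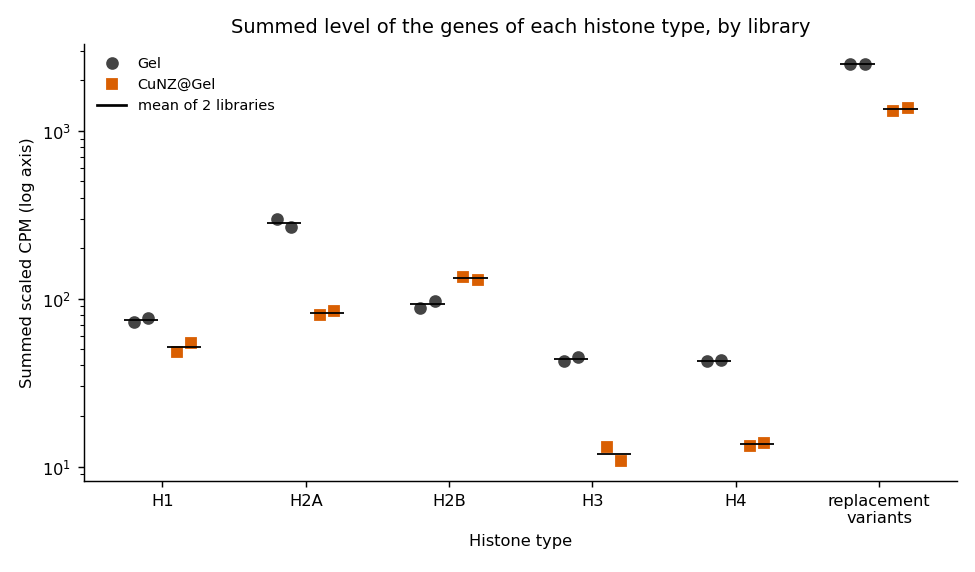
Summed scaled CPM (log axis) of the genes of each histone type and of the 7 replacement variants in each library, with Gel as circles, CuNZ@Gel as squares and lines at the mean of 2 libraries. Squares lie below circles for H1, H2A, H3, H4 and the variants, and above them for H2B at 135 and 129 against 88.0 and 97.2.

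Replacement variants, the contrast group, fell in all 7 cases, against 34.8% of all tested genes, with a median log2 change of -0.85. H1f0, the linker histone known to accumulate in cells that stop dividing, measured 583 and 562 scaled CPM in Gel and 135 and 143 in CuNZ@Gel (-2.04 ± 0.0609). It was 4.12-fold lower, the lowest log2 change of the 7. H1f0 made up 88.9% and 87.9% of the signal of H1f0 and the 5 H1 genes in Gel and 73.6% and 72.4% in CuNZ@Gel. H2az2 fell from 57.0 and 46.2 to 15.2 and 17.8 scaled CPM (-1.59 ± 0.111). H2az1, which encodes the near-identical H2A.Z protein placed at promoters, fell from 343 and 376 to 270 and 289 (-0.36 ± 0.0638). Its call was lost after a correction for transcript length and GC content, with a log2 change of -0.12.

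H2ax, whose protein is phosphorylated at DNA breaks, fell from 84.8 and 78.8 to 33.3 and 33.0 scaled CPM (-1.28 ± 0.0811). H3f3a and H3f3b encode the same protein, H3.3, and moved alike. H3f3a had 665 and 682 scaled CPM in Gel and 414 and 427 in CuNZ@Gel (-0.68 ± 0.0578), and H3f3b had 587 and 592 against 321 and 333 (-0.85 ± 0.0580). Macroh2a1, an H2A with a large additional domain, had 186 and 166 against 122 and 130 (-0.48 ± 0.0694). The groups overlapped for none of the 7, nor did they for 83.2% of all tested genes. Their sum was 2506 and 2503 scaled CPM in Gel and 1311 and 1373 in CuNZ@Gel, 1.87-fold lower, close to the 1.85-fold of the replication-dependent sum. Outside the rule, Cenpa, the centromeric H3 variant, fell (-1.34 ± 0.0814, limma adjusted p = 6.94e-12), and so did H2aj (-0.42 ± 0.0900, adjusted p = 0.000312). The call of H2aj was lost with no filter on low values (adjusted p = 0.0719), and its log2 change was -0.20 after the length and GC correction.

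Position in the genome and the annotated 3′ end are features that the rule did not use. RefSeq's GRCm38 annotation places 52 of the replication-dependent genes on chromosome 13 and 10 on chromosome 3. On chromosome 13, 38 of 43 tested genes were lowered and 3 raised, and on chromosome 3, 5 of 9 were lowered, 1 raised and 3 not called. The 3 not called were H2ac18, H2ac19 and H2bc21. Over all tested genes 34.8% were lowered. On chromosome 13, 23 of the 43 passed the filter only through Gel and so had to be lower, and on chromosome 3, 2 of the 9. The shares lowered on these chromosomes are therefore not like for like. Neighbouring H2A and H2B genes that are read in opposite directions formed 11 pairs, of which 6 had both genes tested. Both genes fell in 4 of these pairs, for example H2ac15 (-2.35) with H2bc15 (-1.60) and H2ac8 (-2.20) with H2bc8 (-1.64). Of all tested replication-dependent genes, 45 of 55 were lowered. In these 4 pairs H2ac8, H2ac12 and H2bc13 passed the filter only through Gel and so had to be lower. The same holds for H2ac6 in the next pair. H2ac6 fell (-1.35) beside H2bc4, which rose (2.23), and H2ac20 fell (-0.92) beside H2bc21, which was not called (0.02). H2ac20 lost its call after the length and GC correction. 

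The annotated transcripts were divided by what follows the stem-loop. Where the transcript ended within 100 bases after it, 14 of 17 tested genes were lowered, none was raised and 3 were not called. The shares among all tested genes were 34.8% lowered and 32.2% raised. Where the transcript ran further, 14 of 18 were lowered, 3 were raised (H1f2, H3c15 and H4c9) and 1 was not called (H2bc6). With no match, 15 of 17 were lowered, 1 was raised (H2bc4) and 1 was not called (H2bc21), and the transcripts of both hold the poly(A) signal AATAAA. So do those of H1f1 (-2.57) and H4c1 (-1.24), which fell. The H1f2 transcript runs 840 bases past its stem-loop and holds AATAAA there. A long extension was also present in lowered genes, with 4884 bases in H1f3, 1153 in H1f4 and 2010 in H2ac6. H1f1, H4c1 and H2ac6 passed the filter only through Gel and so had to be lower. In all, 8 of the 17, 7 of the 18 and 10 of the 17 tested genes counted above passed in this way. Whether the annotated end goes with the direction of change was not tested. Of 4 genes for which polyadenylated transcripts are known, H1f2 and H2bc4 rose, H2bc21 was not called and H2ac6 fell. H2ac6 measured 1.63 and 2.58 scaled CPM in Gel and 0.308 and 0.110 in CuNZ@Gel.

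Other RNAs listed here as lacking a poly(A) tail were also mostly lower in CuNZ@Gel. Of 9 listed, 7 were tested, 6 fell and 1 rose, with a median log2 change of -0.88. The 6 include Neat1 (-0.27) and Rny1, which passed the filter only through Gel and so had to be lower. Among all tested genes 34.8% were lowered and 32.2% raised. Rmrp, the RNA of the RNase MRP particle, measured 28.3 and 25.2 scaled CPM in Gel and 7.75 and 7.99 in CuNZ@Gel (-1.64 ± 0.123, limma adjusted p = 1.92e-10). Rpph1, the RNA of RNase P, fell from 18.1 and 19.6 to 6.25 and 5.76 scaled CPM (adjusted p = 3.05e-09). Rn7sk, which holds back transcription elongation, fell by 0.84 on the log2 scale (adjusted p = 4.13e-10). Malat1, a nuclear RNA whose end is cut rather than polyadenylated, rose from 636 and 648 to 1529 and 1458 scaled CPM (1.22 ± 0.0588, adjusted p = 1.90e-13). The part that the capture of RNAs without a tail has in the histone values was not tested. Log2 changes also went with transcript length over all tested genes that had one (95.7%), with a Pearson r of 0.28 across genes, which are not independent replicates. After correction of each library for length and GC content, 39 of 52 replication-dependent genes were lowered and 6 raised, with a median of -0.88. H2ac13, H2ac20, H2bc14 and H4c8 lost their call, and H2ac18 and H2ac19 gained one as raised.

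Genes that make histone mRNA showed no common direction. Of 20 genes for its transcription, 3′ end cutting and decay, 5 rose, 4 fell and 11 were not called. Among all tested genes, 32.2% were raised, 34.8% lowered and 67.1% called in either direction. The list had a median log2 change of -0.004 that took either sign under other scalings. Slbp, the stem-loop binding protein, measured 66.8 and 62.4 scaled CPM in Gel and 59.6 and 66.7 in CuNZ@Gel (-0.03 ± 0.0806, limma adjusted p = 0.732). Npat, the coactivator of histone gene transcription, measured 24.4 and 26.7 against 29.2 and 26.8 (0.13 ± 0.102, adjusted p = 0.267). With total reads only, Slbp had a log2 change of 0.15 and Npat one of 0.31 that passed the threshold. Hinfp, the factor that binds H4 promoters, rose (0.57 ± 0.103, adjusted p = 5.59e-05). Tut4 and Tut7, which add uridines to histone mRNA before its decay, rose by 0.85 and 0.52 on the log2 scale (adjusted p = 1.84e-08 and 5.48e-05). Pold3, a DNA polymerase delta subunit, fell (-0.43 ± 0.0925, adjusted p = 0.000323).

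**Figure D5:**
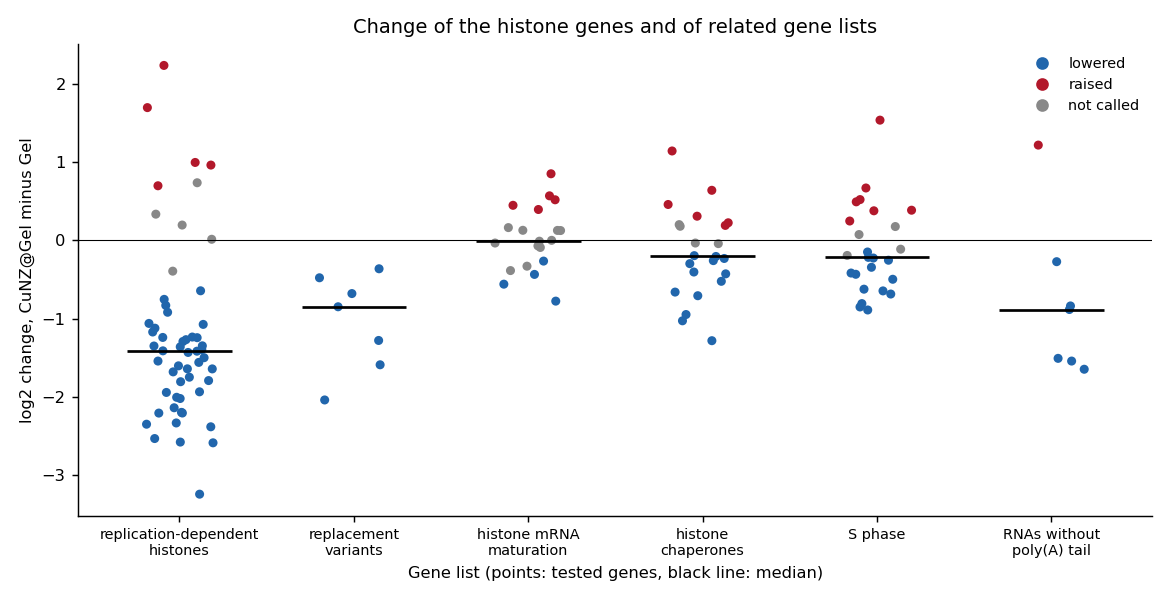
Log2 change (CuNZ@Gel minus Gel, vertical axis) of the tested genes of the histone groups and of 4 related lists, 1 point per gene coloured by call, with the median as a black line. Replication-dependent genes have a median of -1.41 and spread from -3.24 to 2.23, while the maturation, chaperone and S-phase lists have medians of -0.004, -0.20 and -0.22.

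Histone chaperones, which carry histones to and from DNA, gave 13 lowered, 6 raised and 4 not called of 23, with a median of -0.20. Among all tested genes 34.8% were lowered and 32.2% raised, with a median of -0.03. With total reads only, 8 were lowered and 8 raised, so the lean to lower values depended on the scaling. Npm1, a nucleolar chaperone, fell from 3168 and 3110 to 1249 and 1337 scaled CPM (-1.28 ± 0.0628, limma adjusted p = 2.42e-13). Nap1l1, a carrier of H2A and H2B, fell by 0.95 and Ssrp1, a subunit of the FACT complex, by 0.71 on the log2 scale (adjusted p = 7.36e-12 and 3.21e-09). Atrx, which places H3.3 with Daxx, rose from 76.7 and 76.1 to 178 and 162 scaled CPM (1.14 ± 0.0696, adjusted p = 7.16e-12).

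S-phase genes gave 14 lowered, 7 raised and 4 not called of 25, with a median of -0.22, against -1.41 for the replication-dependent histone genes. The shares among all tested genes were 34.8% lowered and 32.2% raised. Cdt1, which licenses replication origins, Prim1, the primase, and Tk1, thymidine kinase, fell by 0.85, 0.89 and 0.81 on the log2 scale (limma adjusted p = 2.13e-09, 6.77e-08 and 9.51e-08). Ccne2, an E-type cyclin of S-phase entry, rose from 9.78 and 8.72 to 27.9 and 29.4 scaled CPM (1.54 ± 0.119, adjusted p = 3.35e-10). No S-phase gene fell by as much as 1 on the log2 scale, whereas 41 of the 55 tested replication-dependent histone genes did. Over all tested genes 6.12% did. Of those 55, 26 passed the filter only through Gel and so had to be lower, against 0 of the 25 S-phase genes. The counts and medians of these lists are therefore not like for like. With total reads only, 8 S-phase genes were lowered and 9 raised, and 11 maturation genes were raised and 3 lowered. Under that scaling 24.7% of all genes were lowered. The part that a shift in the cell cycle has in the histone values was not tested.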

How the data were processed

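RNA from 4 RAW264.7 libraries was analysed. The authors deposited 1 log2 value per symbol and library, to 3 decimals. The submitters' processing notes list GATK, Salmon, STAR and fastp with build GRCm39; versions, roles, settings, annotation and normalization were not stated. Judged by its steps, each value is log2(x + 1), where x is CPM divided by 1 factor per library (0.937, 0.936, 1.07 and 1.07 for Gel 1 and 2 and CuNZ@Gel 1 and 2). The step of 1 read gave totals of 14734000, 13716000, 14879000 and 14737000, and 92.7% to 93.5% of values up to 1 were whole reads within 0.02. The limit that a count of 0 allows (3 reads at 95% confidence, counting error only) was 0.189 to 0.234 scaled CPM.

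The filter kept genes that reached 1 scaled CPM in 2 or more libraries. The test was limma 3.58.1 (R 4.3.3) with a variance trend and the group as the only term, and Benjamini-Hochberg adjustment over 11588 genes at 0.05; the procedure was tested on simulated data. Members and lists were chosen with earlier results of these data known. Described singly are members with at least 5 scaled CPM in a group, and up to 4 genes with the smallest p per other list plus Slbp and Npat; H2ac6, H2bc6, H4c9 and others below 5 were named after their values were seen. GENCODE vM21 and RefSeq, both of GRCm38, gave names, neighbours and sequences; 69 of 73 members matched. H2ac25, H2bc24, H2bc27 and H4c16 did not. Alternatives were 3 other scalings, limma-voom on the recovered reads, 2 filters, a pseudocount of 0.1, each library left out, the replicate number as a block, and a length and GC correction; a crossed block was added after the data were seen.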

Additional observations from a re-analysis of the deposited data

How the results depend on the processing

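Of 31 histone genes described singly, 27 kept direction and side of the threshold in each of the 14 alternatives that gave them a value; the others were H2ac18, H2ac19, H2bc21 and H2az1. For 6 of the 31 (H1f1, H1f5, H2ac8, H2bc3, H3c2 and H2bc24), at least 1 alternative gave no value. The count of replication-dependent genes lowered (45 of 55) was 15 with a filter at 5 scaled CPM and between 19 (without either Gel replicate) and 46 with 1 library left out; fewer genes pass the filter in these cases. Those raised (5) numbered 8 with total reads only (H2ac18, H2ac19 and H2bc6 in addition). Also with total reads only, 11 maturation genes were raised and 8 chaperone and 8 S-phase genes lowered; 3 maturation genes were raised after the length and GC correction. The median of the maturation genes (-0.004) reversed to 0.026 with relative log expression factors, 0.025 with upper-quartile factors, 0.18 with total reads only and 0.064 with the filter at 5, and ranged from -0.00575 to 0.018 with a library left out. With a library left out, H2ac18 ranged from -0.28 to 1.75, H2bc21 from -0.016 to 0.046 and Slbp from -0.113 to 0.047. Slbp also reversed with total reads only (0.15), a scaling that moved the median of all tested genes from -0.029 to 0.15. Npat reversed after the length and GC correction (-0.19), and the cause of that was not tested. The median of the replication-dependent genes was -2.55 with limma-voom and -2.38 with a pseudocount of 0.1. H2bc14 and H4c8 lost their call without CuNZ@Gel replicate 2. Same-numbered libraries did not deviate together (r = -0.12), so the numbers show no pairing; with the replicate block, 45 replication-dependent genes were lowered and 6 raised (H2ac18 in addition, log2 change 0.74). A crossed replicate block, chosen after seeing the data, gave 45 and 7. With 2 libraries per group and fractional reads, values under about 1 scaled CPM rest on few reads.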
